A study of Mus musculus with 24 samples.

Results

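The 8 genes described here, Rhox5, Nxf3, Dazl, Mael, Sycp3, Tex101, Ddx4 and Taf7l, were grouped as germline genes with promoters methylated in body cells. Rhox5 and Nxf3 were selected on their measured levels in CPM (read counts scaled to library size), which differed between the cell lines of these same data, so their levels are given as a description with no test. Only the other 6 were taken as known germline genes under promoter methylation. All 8 are among the 17501 genes of the table for mouse embryonic stem cells (mESC), and 5 are among the 16024 genes of the table for neural progenitor cells (NPC), where Dazl, Mael and Tex101 have no row.

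RNA sequencing covered 24 libraries, 12 of each cell type, with 2 libraries for each of 6 Htt genotypes. Htt encodes huntingtin. The groups were wild type (WT), Htt knockout (KO) and knock-in lines carrying a heterozygous Hdh CAG allele, named Q20, Q50, Q92 and Q111 for their repeat length. The titles call the third line Q92, while the growth protocol gives another length for it. mESC grew with LIF, a cytokine that keeps them undifferentiated, on gelatin and irradiated mouse embryonic fibroblast feeders. NPC came from such cells after differentiation in N2B27 medium and expansion with FGF and EGF. A genotype is a line here, so a difference between genotypes and one between lines cannot be told apart. No label states that the libraries of a group came from separate cultures, and p-values measure the spread between these libraries. In mESC the library labelled KO 1 had 139 CPM of Htt and the library labelled KO 2 had 68.5, against 124 and 113 in WT. Htt RNA in KO 1 was thus not lower than in WT. The label was kept, and a level over the whole gene cannot show the state of the allele. In NPC the libraries labelled KO had 100 and 94.9 CPM of Htt, against 137 and 177 in WT. The labelled cell types matched their markers: 11 of 12 mESC markers summed to 2274 to 4202 CPM in mESC and 12 of 12 NPC markers to 4295 to 9779 CPM in NPC. Markers of primordial germ cells, 10 of 10 in the table, summed to 144 to 198 CPM over the 12 mESC libraries. Depth was 58546211 to 81502284 recovered reads a library in mESC and 48525333 to 118038952 in NPC.

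Germline genes of this kind have promoters rich in CpG, the dinucleotide that carries DNA methylation. Around implantation the methyltransferases Dnmt3a and Dnmt3b methylate these promoters, Dnmt1 with Uhrf1 keeps the mark through cell division, and a Polycomb complex built on E2f6, Mga, Max and Pcgf6 marks many of them first, through E2F sites and E-boxes. Primordial germ cells erase the mark and switch such germline genes on. DNA methylation itself was not measured in these libraries. No level in these data defines a gene as silenced, and the genes are called germline genes here. In mESC 7 of the 8 had at least 1.77 CPM in every library, and Tex101 had 0.522 to 4.18. In NPC the 5 genes with a row had at most 1.49 CPM in every library, with the exception of Nxf3 in Q20.

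The promoters of 7 members were found in a RefSeq table on GRCm38.p6; Nxf3 was not among them. For 5 of the 7 the RefSeq start lies within 165 bases of the start in GENCODE M21, whereas the starts of Tex101 and Rhox5 lie 4625 and 50234 bases apart, so nothing is read from those. In the 250 bases before the RefSeq start Ddx4 held 31 CpG, Dazl 20, Mael 18, Taf7l 14 and Sycp3 12, against a median of 6 over 32851 promoters. For Ddx4 only 85 of these bases, with 3 CpG, lie before the GENCODE start, and the rest lie inside the annotated gene. As many CpG as in Ddx4 were found in 5.19% of all promoters, and as many as in Sycp3 in 33.5%. The runs below are the members whose levels the tests below turn on. They end before the outermost annotated start, hold 19, 18, 10 and 14 CpG, and are printed 5′ to 3′ on the gene's strand with every CpG in capitals. Dazl is chr17:50293637-50293870 on the minus strand, Mael chr1:166238748-166238994 on the minus strand, Sycp3 chr10:88459337-88459568 on the plus strand and Taf7l chrX:134476491-134476740 on the minus strand.
Dazl: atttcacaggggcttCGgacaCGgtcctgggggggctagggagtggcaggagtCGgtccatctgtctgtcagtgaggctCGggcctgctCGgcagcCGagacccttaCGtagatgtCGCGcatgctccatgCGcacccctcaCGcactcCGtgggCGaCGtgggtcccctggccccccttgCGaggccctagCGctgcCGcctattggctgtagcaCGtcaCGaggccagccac
Mael: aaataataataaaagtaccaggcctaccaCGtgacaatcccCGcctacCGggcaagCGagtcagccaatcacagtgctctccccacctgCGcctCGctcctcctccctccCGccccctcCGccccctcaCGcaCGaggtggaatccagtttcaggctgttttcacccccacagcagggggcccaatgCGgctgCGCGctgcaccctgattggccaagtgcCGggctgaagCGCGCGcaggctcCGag
Sycp3: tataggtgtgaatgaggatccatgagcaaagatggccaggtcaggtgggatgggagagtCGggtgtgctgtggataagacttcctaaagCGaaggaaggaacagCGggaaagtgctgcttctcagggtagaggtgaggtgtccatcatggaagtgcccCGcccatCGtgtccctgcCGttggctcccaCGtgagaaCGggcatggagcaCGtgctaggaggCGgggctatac
Taf7l: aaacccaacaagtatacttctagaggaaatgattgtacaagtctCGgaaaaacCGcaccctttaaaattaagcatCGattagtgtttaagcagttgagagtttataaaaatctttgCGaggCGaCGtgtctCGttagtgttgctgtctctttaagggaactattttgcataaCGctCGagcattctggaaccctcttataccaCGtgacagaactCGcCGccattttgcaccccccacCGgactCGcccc
The core of an E2F site, GCGGGA searched on both strands, was present once each in the windows of Mael, Sycp3 and Ddx4, and in 16.9% of all promoters. The E-box CACGTG, the same on both strands, was present in Mael, Sycp3, Ddx4 and Taf7l and in 6.02% of all promoters; Sycp3 held 2 of them. Neither string was in the window of Dazl. Both matches of Ddx4 lie inside the annotated gene, outside the 85 bases before its GENCODE start. No matches of the 2 motifs overlapped in the printed runs, and a match describes the sequence alone.

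Per kb of exon, the median level over the 12 mESC libraries was highest for Rhox5, at 43.0 CPM per kb. Sycp3, Mael, Ddx4 and Dazl followed at 16.7, 15.6, 15.4 and 11.6 CPM per kb, a narrow range beside their spread over libraries. Taf7l and Nxf3 had 2.33 and 2.08 CPM per kb and Tex101 0.698. Of the 6 members that could be tested, all 6 passed the filter of at least 1 CPM in at least 2 mESC libraries and 0 passed it in NPC.

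Rhox5 (chromosome X, 37804842 to 37808876, GRCm38, plus strand, 4 exons) encodes a homeobox transcription factor and is the founding gene of the Rhox cluster. In mESC it had 40.0 and 31.5 CPM in WT, 17.2 and 14.8 in KO, 96.1 and 103 in Q20, 33.5 and 30.9 in Q50, 20.2 and 19.8 in Q92 and 115 and 95.1 in Q111. Q20 and Q111 stood above all other libraries and overlapped each other, and the KO libraries were the lowest. The mean of Q111 was 6.56 times that of KO. WT and Q50 overlapped, so that the order of group means was Q111, Q20, WT, Q50, Q92, KO with 2 neighbouring pairs whose libraries overlap.

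Nxf3 (chromosome X, 136072099 to 136085255, minus strand, 19 exons) belongs to the nuclear RNA export factor family. In mESC it had 3.26 and 2.51 CPM in WT, 1.77 and 1.83 in KO, 19.8 and 14.9 in Q20, 6.83 and 6.98 in Q50, 5.82 and 5.84 in Q92 and 37.3 and 36.8 in Q111. No neighbouring groups in this order overlapped, and Q111 and Q20 were again the highest. The mean of Q111 was 20.6 times that of KO. In NPC the order was another one: Nxf3 had 132 and 136 CPM in Q20, backed by 10647 and 12681 reads, and between 0 and 1.49 CPM in the other 10 libraries. It had no read in WT 1 and in the library labelled KO 2, 17 in WT 2 and 5 in KO 1, and 1.49 and 1.16 CPM in Q111, the line with the highest mESC level.

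**Figure D1:**
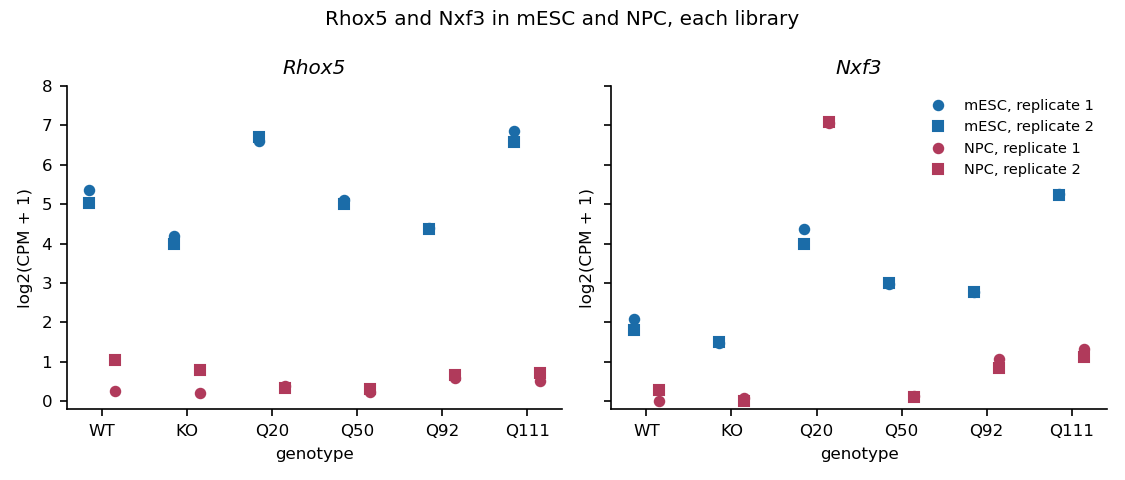
Rhox5 and Nxf3 in each library as log2(CPM + 1), the vertical axis, for the 6 genotypes on the horizontal axis; blue is mESC, red is NPC, circles are replicate 1 and squares replicate 2. In mESC both genes are highest in Q20 and Q111, and in NPC Nxf3 is high in Q20 alone, at 132 and 136 CPM; the tables of the 2 cell types were scaled separately.

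Rhox5 in NPC had 0.193 and 1.07 CPM in WT, 0.158 and 0.724 in KO, 0.298 and 0.268 in Q20, 0.174 and 0.247 in Q50, 0.512 and 0.594 in Q92 and 0.433 and 0.638 in Q111. It was low in every NPC library, Q20 included, and rested on 9 to 87 reads. Both tables were scaled separately, so the cell types are set side by side and not tested against each other.

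Dazl (chromosome 17, 50279395 to 50293636, minus strand, 11 exons) encodes an RNA-binding protein that germ cells need to enter meiosis. Its mESC levels were 58.2 and 198 CPM in WT, 33.0 and 71.2 in KO, 20.4 and 45.7 in Q20, 41.8 and 33.1 in Q50, 26.4 and 43.6 in Q92 and 44.7 and 64.7 in Q111. WT 2 stood above all other libraries, at 3.39 times WT 1. Both Q20 libraries lay below both WT libraries.

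Ddx4 (chromosome 13, 112598333 to 112652475, minus strand, 22 exons) encodes the germ cell RNA helicase Vasa. It had 44.1 and 35.4 CPM in WT, 48.7 and 79.7 in KO, 30.5 and 33.7 in Q20, 52.9 and 58.5 in Q50, 41.6 and 42.0 in Q92 and 49.5 and 58.8 in Q111. Its group means spanned 2.00 times, the narrowest range of the 8 members, with Q20 below every other library.

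Mael (chromosome 1, 166201201 to 166238747, minus strand, 11 exons) encodes Maelstrom, a protein of the piRNA pathway, in which small RNAs silence transposons. It had 50.5 and 56.6 CPM in WT, 27.0 and 34.3 in KO, 26.0 and 27.2 in Q20, 20.5 and 21.3 in Q50, 17.7 and 22.0 in Q92 and 53.1 and 37.4 in Q111. WT and Q111 overlapped and lay above all other libraries.

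Sycp3 (chromosome 10, 88459569 to 88473236, plus strand, 8 exons) encodes a structural protein of the synaptonemal complex, which holds paired chromosomes together in meiosis. It had 68.0 and 14.1 CPM in WT, 54.9 and 17.7 in KO, 44.4 and 9.08 in Q20, 43.8 and 11.7 in Q50, 24.5 and 5.48 in Q92 and 39.7 and 8.43 in Q111. Every library numbered 1 lay above every library numbered 2, whatever the genotype. Sycp3 lies inside Chpt1, a phospholipid synthesis gene on the other strand, and the use of strand in counting is not given in the sources used here, so reads of both cannot be told apart. Chpt1 had 16.4 to 30.5 CPM in the libraries numbered 1 and 5.89 to 18.2 in those numbered 2; its part in the Sycp3 result was not tested.

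Tex101 (chromosome 7, 24668007 to 24676675, minus strand, 7 exons) encodes a membrane-anchored protein of germ cells that sperm need for fertilisation. It was the least abundant member, with 0.527 and 1.05 CPM in WT, 0.522 and 0.822 in KO, 1.14 and 3.15 in Q20, 1.44 and 1.59 in Q50, 0.844 and 1.17 in Q92 and 2.85 and 4.18 in Q111. These values rest on 32 to 326 reads. Q111 had the highest mean, and Q20 spanned most of the range between WT and Q111.

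Taf7l (chromosome X, 134460118 to 134476490, minus strand, 13 exons) encodes a germ cell form of a subunit of TFIID, the complex that starts transcription by RNA polymerase II. It had 4.30 and 10.6 CPM in WT, 2.72 and 10.5 in KO, 3.66 and 8.15 in Q20, 4.57 and 7.95 in Q50, 2.99 and 5.27 in Q92 and 5.17 and 17.6 in Q111. Here the library numbered 2 was the higher one in all 6 genotypes.

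**Figure D2:**
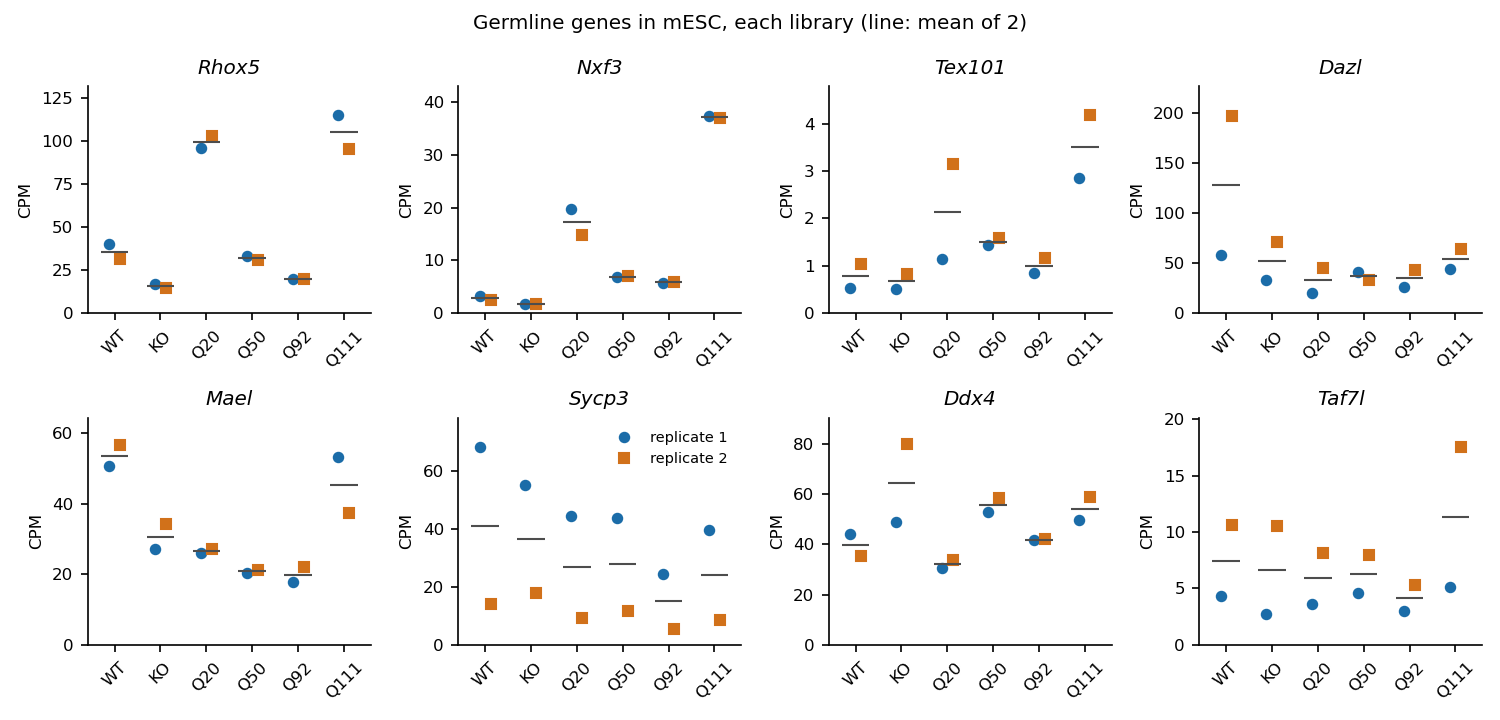
The 8 genes in the 12 mESC libraries, CPM on the vertical axes and genotype on the horizontal axes; blue circles are replicate 1, orange squares replicate 2 and short lines the mean of 2. Rhox5 and Nxf3 are set apart by line, Sycp3 by replicate number (5.48 to 17.7 against 24.5 to 68.0 CPM) and Dazl has 1 library near 198 CPM.

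Differences among the 6 mESC genotypes were tested over all genes with limma on log2(CPM + 1), and a gene was called at an adjusted p under 0.05. Of the 6 tested members 0 were called in any of the 7 comparisons, while 0.201% of all 13916 genes were called for any difference among the genotypes. At an unadjusted p under 0.05 there were 3 members for any difference (Mael, Tex101 and Ddx4), 2 for KO against WT, 2 for Q20 against WT, 1 for Q50 against Q20, 0 for Q92 against Q20, 2 for Q111 against Q20 and 0 for the trend with CAG length. edgeR on the recovered reads also called 0 members in each, with 3, 2, 3, 1, 0, 2 and 0 at an unadjusted p under 0.05. The shares of all genes called were 0.0144% for KO against WT, 0.323% for Q20 against WT, 0.00719% for Q50 against Q20, 0.00719% for Q92 against Q20, 0% for Q111 against Q20 and 0% for the trend. Beside shares this low, 0 of 6 says nothing particular about the members. The Mael difference had the smallest adjusted p of the members, 0.13.

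The libraries with the same replicate number deviated together in mESC, so the fit with the replicate number as a block was read beside the first. Under the block 3 of 6 members were called for any difference among genotypes, Mael (adjusted p 0.0251), Sycp3 (0.0269) and Tex101 (0.0335), against 8.67% of all genes, with limma; edgeR with the block also called 3. Leaving out each library in turn gave 0 to 2 members, with Mael called in 4 of 12 fits, Sycp3 in 2 and Tex101 in 2. For Q20 against WT under the block, Dazl was lower by a log2 difference of -1.78 (SE 0.41, adjusted p 0.0366) and Mael by -0.98 (SE 0.21, adjusted p 0.0287), with 4.69% of all genes called lower and 5.91% called higher. Leaving out each library in turn kept both directions, with log2 differences of -2.34 to -1.22 for Dazl and -1.04 to -0.93 for Mael, while Dazl was called in 4 and Mael in 6 of 12 fits. Neither was called without 1 of the WT or of the Q20 libraries. With 1 library of a pair left out, its partner no longer informs the replicate effect or the spread. The fibroblast markers moved with this contrast: the summed level of the 9 of 10 markers in the table was 19.4 to 32.1 CPM in the WT and KO libraries and 52.8 to 96.3 in the knock-in lines, with Col3a1 listed at 0 in WT 1. Under the block 6 of the 8 tested were called higher in Q20 than in WT. The mESC markers, 11 of 12 in the table, summed to 2274 and 3137 CPM in Q20 and to 4202 and 3867 in WT. The NPC markers summed to 350 and 559 CPM in Q20 against 142 and 198, and Sertoli cell markers, 8 of 10 in the table, to 69.9 and 68.4 against 31.9 and 36.2. The Q20 and WT ranges of these 4 lists did not overlap, which says little with 2 libraries a group. Those of primordial germ cell markers, 163.7 to 173.5 CPM in Q20 and 143.6 to 158.7 in WT, did not overlap either. Ranges did overlap for spermatogonium and spermatocyte markers and for markers of cells like the 2-cell embryo. Markers of trophoblast and primitive endoderm, 12 of 12 in the table, summed to 42.1 and 58.0 CPM in Q20 against 111 and 70.3, again without overlap. Of these, 4 of 9 tested were called lower under the block. The part of these lists in the result was not tested, and fewer cells of a type and less RNA per cell cannot be told apart in such bulk samples.

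Several members differed by replicate number. With genotype in the model, 4 of 6 members differed between the libraries numbered 2 and 1, against 43.3% of all genes, a share to be read against that background (limma; edgeR also called 4). Sycp3 was lower by a log2 difference of -1.97 (SE 0.11, adjusted p 0.000106), beside 22.8% of all genes called lower. Its libraries numbered 2 had 0.204 to 0.323 times the level of their partners in all 6 genotypes. Taf7l was higher by 1.11 (SE 0.17, adjusted p 0.00156), Dazl by 0.81 (SE 0.24, adjusted p 0.0273) and Tex101 by 0.40 (SE 0.13, adjusted p 0.0368, limma), beside 20.5% of all genes called higher. For Tex101, near 1 CPM, edgeR on the recovered reads gave a log2 difference of 0.72, since log2(CPM + 1) understates the change of low genes. Taf7l and Tex101 were higher in 6 of 6 genotypes and Dazl in 5 of 6, with Q50 the exception. Without the libraries of WT, KO, Q20 or Q92 in turn the count fell to 2, Sycp3 and Taf7l, and without those of Q111 Tex101 was lost. Mael and Ddx4 differed by 0.07 and 0.15 with adjusted p of 0.67 and 0.351. In NPC no tested member passed the filter. The NPC marker list, 12 of 12 genes, summed to 142 to 350 CPM in the mESC libraries numbered 1 and 198 to 563 in those numbered 2, and its part was not tested.

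**Figure D3:**
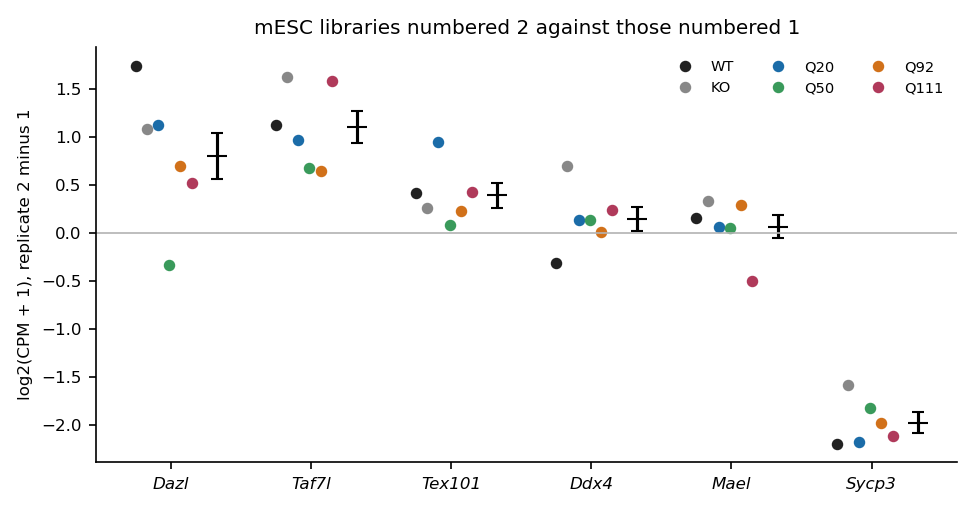
Difference of log2(CPM + 1) between replicate 2 and replicate 1 on the vertical axis for each of the 6 tested genes in mESC; dots are genotypes and the bar at the right of each gene is the fitted difference with its SE. All 6 genotypes lie between -2.19 and -1.58 for Sycp3 and above 0 for Taf7l and Tex101.

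Across the 12 mESC libraries the levels of the members followed several patterns, given here as a description of libraries that share genotype and replicate number. Pearson's r of log2(CPM + 1) was 0.88 between Rhox5 and Nxf3, 0.85 between Nxf3 and Tex101 and 0.76 between Rhox5 and Tex101. Rhox5 and Nxf3 were selected on their line-specific levels in these same data, so no shared regulation is read from these values. Dazl and Mael had 0.70, Sycp3 and Taf7l -0.67, and Ddx4 between -0.37 and 0.36 with each of the 7 others. Among 11169 expressed genes those most like Rhox5 were 1700013H16Rik (r 0.97), Usp26 (0.95) and Coch (0.94), of which the first 2 are X-linked. The nearest to Nxf3 were Prickle1, Fxyd5 and Psmd11 (each 0.96) and none of these is X-linked. Mael was most like Sult6b1 (0.90), Soat2 (0.88) and Gm364 (0.86), Dazl like Tyk2 (0.94), Itgb7 (0.92) and Impa1 (0.91), and Ddx4 like Evc2 (0.88), 2310035C23Rik (0.83) and Tubgcp3 (0.82). Sycp3 was most like Uap1l1 (0.98), Ephx2 (0.97) and C2 (0.97), and Taf7l like Sgta (0.94), Insc (0.93) and Vps33b (0.92). Tex101, at most 4.18 CPM, fell below the 5 CPM that a candidate had to reach, and of the other 7 members none was among the 3 genes most like another. In NPC, Nxf3 was nearest to Pla2r1, Igsf1 and Fa2h (0.99, 0.99 and 0.98), with group means of 5.33, 7.72 and 6.49 CPM in Q20 and at most 0.679 elsewhere. The NPC genes nearest to Rhox5, which stood at about 1 CPM or less, were Kbtbd4 (0.96), Sars2 (0.96) and Ppp2r5d (0.93).

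The genes around Rhox5, Nxf3 and Mael did not share one pattern, and those around the other members are not described. Within 250 kb of Rhox5, 10 of 23 annotated genes were in the mESC table, 2 with at least 5 CPM: Rhox6, a homeobox gene, had 12.0 and 12.7 CPM in Q20 and 1.87 to 8.11 elsewhere, and Rhox9 had 6.46 and 4.90 in Q20 and 0.522 to 4.56 elsewhere. None of the 23 was in the NPC table. Within 250 kb of Nxf3, 9 of 15 genes were in the NPC table and 7 reached 5 CPM (Bex1 to Bex4, Tceal8, Tceal9 and Gprasp2). Bex2 lies 5.54 kb from Nxf3, measured between the lowest genomic coordinates of both genes, whatever their strand. Bex2 had 37.0 and 34.4 CPM in the NPC Q20 libraries and 32.8 to 194 in the others. The high Nxf3 of NPC Q20 thus had no counterpart in Bex2. Bex1 had 53.3 and 29.4 CPM in NPC Q20 and 3.04 to 29.2 elsewhere. Within 250 kb of Mael, 4 genes of the mESC table reached 5 CPM. Of these Gpa33 was highest in WT and Q111, as Mael was. It had 70.6 and 65.4 CPM in WT, 61.9 and 74.1 in Q111 and 18.5 to 53.7 elsewhere. Its adjusted p among genotypes was 0.0144 with the block and 0.135 without it (limma). Tada1, Dusp27 and Pogk did not have this order, and a link between Gpa33 and Mael was not tested. The median log2 difference from WT over 519 X-linked genes was 0.01 in Q20 and 0.13 in Q111, against -0.04 and -0.02 over 13370 autosomal genes.

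Other germline genes were counted from lists of meiotic, piRNA, regulator and X-linked genes. In mESC without the block 1 gene of these lists was called for a difference among genotypes, Xlr5c of the X-linked list (limma). With the block 7 of 17 meiotic, 6 of 14 piRNA, 3 of 16 regulator and 9 of 18 X-linked genes were called, against 8.67% of all genes. The most abundant called genes were Smc1b, a meiotic cohesin (up to 258 CPM), Syce2, a synaptonemal complex protein (111), and Hormad1, a meiotic checkpoint protein (68.2). On the piRNA list they were Tdrd12 (136 CPM), the PIWI protein gene Piwil2 (107) and the helicase gene Mov10l1 (53.0). For Q20 against WT under the block the median log2 difference was 0.59 for the X-linked list, beside -0.04 over all genes, and 5 of its 18 genes were called, all 5 higher, against 5.91% of all genes. None of these 5 was called for this contrast without the block. The other germline lists had medians below that of all genes: -0.18 for the meiotic list (2 genes called higher and 1 lower of 17), -0.18 for the piRNA list (2 higher and 2 lower of 14) and -0.27 for the regulators (3 of 16 called, all lower), beside 4.69% of all genes called lower. On the X-linked list Usp26 had 130 and 103 CPM in Q20, 136 and 84.3 in Q111 and 4.61 to 37.0 elsewhere. Xlr5c had 67.5 and 40.0 CPM in Q111, 15.4 and 11.0 in Q20 and 1.83 to 8.26 elsewhere. Rhox6 and Rhox2a were called higher too, at 12.0 and 12.7 and at 2.00 and 3.75 CPM in Q20. The other Rhox genes on the list, Rhox1, Rhox9, Rhox10 and Rhox13, were not called for Q20 against WT, nor was Nxf2, with 0.33 to 2.29 CPM.

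The synaptonemal complex genes did not move as 1 group with the replicate number. Of 17 meiotic genes 9 were called between replicate numbers, 8 lower and 1 higher in the libraries numbered 2, against 43.3% of all genes. Like Sycp3, Sycp2 (-0.45), Syce2 (-0.56) and Syce3 (-0.50) were lower, whereas Syce1 was higher (1.09) and Sycp1 had a difference of 0.29 that was not called (limma, adjusted p 0.275). Meiob, a gene of meiotic recombination named here after its values were seen, had 5.70 to 12.7 CPM in the libraries numbered 1 and 0.211 to 1.57 in those numbered 2.

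**Figure D4:**
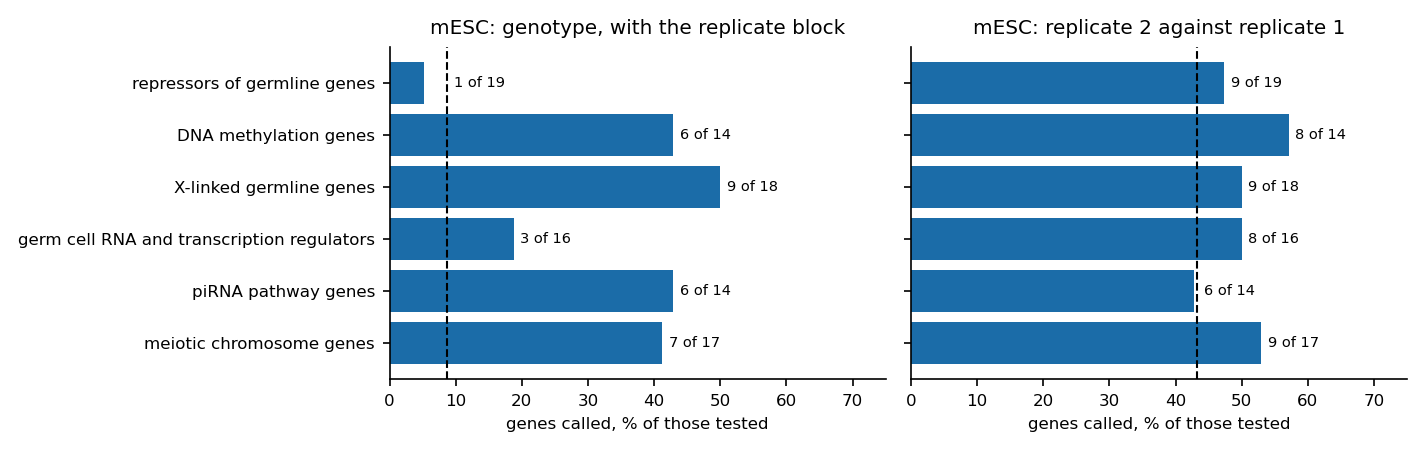
Share of tested genes called in mESC for each gene list, in percent on the horizontal axis, for genotype with the replicate block at the left and for replicate number at the right; dashed lines are the shares over all genes, 8.67% and 43.3%. The text beside each bar gives the count called of those tested.

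A list of 14 genes that write, keep, remove or read DNA methylation was read beside the members in mESC. With the block 6 of 14 differed among genotypes, against 8.67% of all genes, and were not called without it. They were the methyltransferase genes Dnmt1, Dnmt3b and Dnmt3c, the maintenance factor gene Uhrf1, Tet2, which encodes an enzyme that oxidises the mark, and Zfp57, which encodes a zinc finger protein that binds methylated DNA. Dnmt3b, the main de novo enzyme, had 527 and 465 CPM in Q20 and 466 and 436 in Q111, and 161 to 299.9 in the other 8 libraries, so it was high in the lines with high Rhox5 and Nxf3. Uhrf1, which guides Dnmt1 to newly copied DNA, had 227 and 303 CPM in Q111 and 404 to 807 elsewhere. Between replicate numbers 8 of 14 were called, all 8 higher in the libraries numbered 2, against 20.5% of all genes called higher: Dnmt1, Dnmt3l, Uhrf1, Tet1, Tet2, Mbd1, Mbd2 and Zfp57, with a list median of 0.34 beside -0.005 over all genes. Of 19 tested repressors of germline genes, such as E2f6, Mga, Pcgf6 and Setdb1, 1 was called among genotypes with the block, Tfdp1, and 9 differed with replicate number, 7 of them higher. These shares, 5.26% and 47.4%, are near the 8.67% and 43.3% of all genes and say nothing particular about the repressors. What these levels mean for the members was not tested.

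In NPC the low members were read in full. Sycp3 had 0.123 and 0.0368 CPM in WT, 0.158 and 0.106 in KO, 0.398 and 0.204 in Q20, 0.290 and 0.259 in Q50, 0.0826 and 0.0469 in Q92 and 0.122 and 0.0851 in Q111. Ddx4 had 0.158 and 0.111 CPM in WT, 0.867 and 0.247 in KO, 0.820 and 0.676 in Q20, 0.600 and 0.470 in Q50, 0.231 and 0.0938 in Q92 and 0.0271 and 0.0567 in Q111. Taf7l had 0.0265 to 0.140 CPM over the 12 libraries. All 3 rested on 2 to 88 reads a library and were below the filter, so the test applied to the other genes left them out.

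The NPC Q20 libraries stood apart in other genes as well, which were read beside Nxf3. Of the 12 mESC markers 6 were in the NPC table, and they summed to 106.5 and 108.3 CPM in Q20 and 4.76 to 26.6 in the other lines. Pou5f1 (Oct4), the pluripotency factor, had 90.0 and 87.4 CPM in Q20 and at most 0.405 elsewhere, and Nanog had 13.0 and 13.7 against at most 1.63. Zfp42, Dppa5a, Utf1, Fgf4 and Dppa4, 5 of the defining mESC markers, had no row in the NPC table, and Tdgf1 had 0.683 and 0.568 CPM in Q20. The fibroblast markers, 10 of 10 in the table, summed to 321 and 384 CPM in Q20, 1102 and 1119 in Q50 and 149 to 370 in the other lines. The germ cell lists went opposite ways. Markers of primordial germ cells, 6 of 10 in the table, summed to 25.0 and 28.8 CPM in Q20 and 32.9 to 70.4 elsewhere. The spermatogonium and spermatocyte markers, 7 of 10 in the table, summed to 34.6 and 37.8 CPM in Q20 and 20.7 to 29.7 elsewhere, with Sycp1 at 1.84 and 1.76 and Spo11 at or under 0.112 in Q20. The 12 neural progenitor markers summed to 4295 and 4480 CPM in Q20, below the 5757 to 9779 of the other lines. For Q20 against WT 3 of the 12 were called, 1 higher and 2 lower, beside 9.97% of all genes called higher and 4.57% lower (limma). The list median was -0.54 beside -0.02 over all genes. The part of any of these in the Nxf3 level was not tested.

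**Figure D5:**
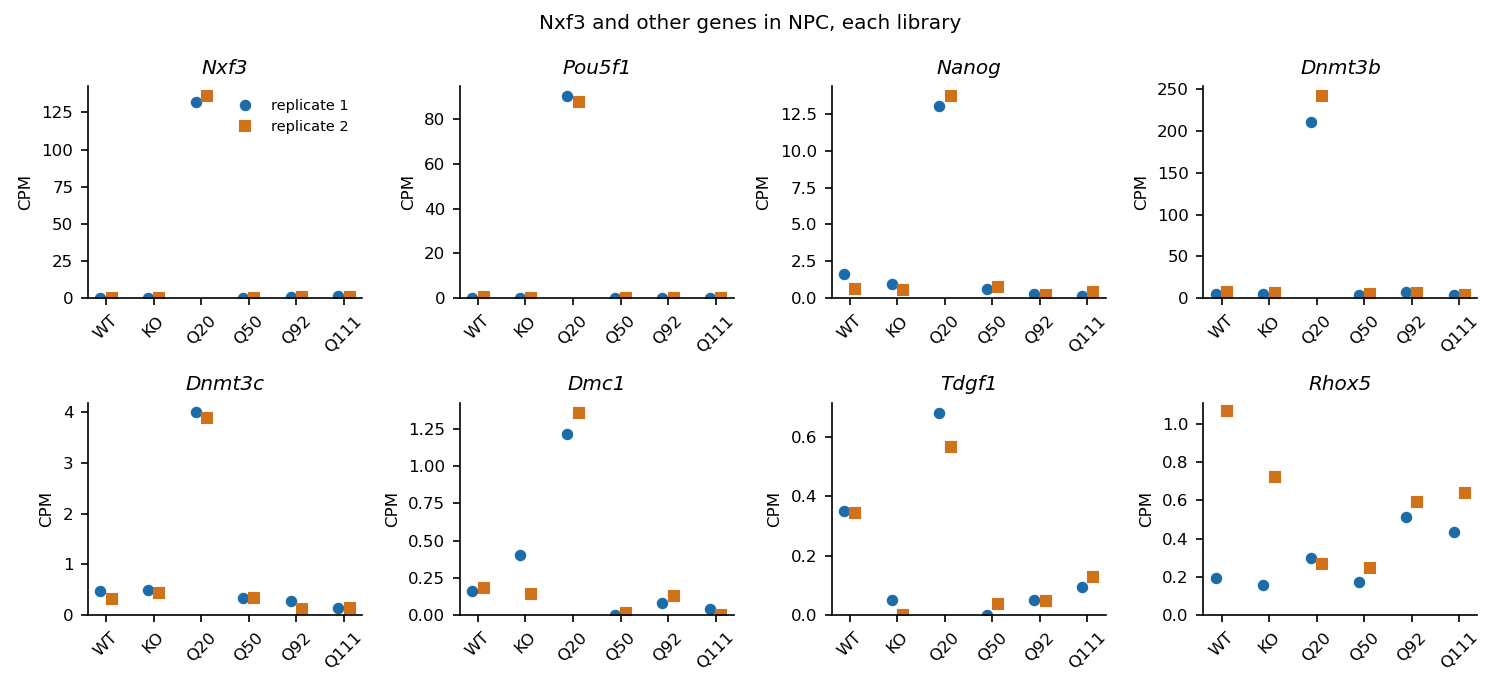
CPM of Nxf3 and 7 other genes in the 12 NPC libraries, by genotype on the horizontal axes; blue circles are replicate 1 and orange squares replicate 2. Pou5f1, Nanog, Dnmt3b, Dnmt3c and Nxf3 are high in both Q20 libraries, and Rhox5 is not. Dmc1 is higher in both Q20 libraries than in WT, at levels just above 1 CPM.

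Among NPC germline lists few genes passed the filter. Any difference among genotypes was called for 38% of all 13206 genes, for 4 of 6 tested meiotic genes, 1 of 4 piRNA genes, 3 of 5 regulators and 5 of 6 X-linked germline genes (limma). For Q20 against WT 9.97% of all genes were called higher and 4.57% lower. Dmc1, the meiotic recombinase gene, was higher, at 1.22 and 1.36 CPM against 0.158 and 0.184. Its Q20 libraries lay just above the 1 CPM of the filter and its WT libraries below it, so its levels are given as a description. The meiotic cohesin genes Stag3 and Smc1b were lower. Stag3 had 7.60 and 7.57 CPM in Q20 and 23.9 and 22.5 in WT. Of the X-linked genes Xlr3a was higher, at 12.8 and 14.9 against 6.69 and 5.98 CPM, and Mageb16, Taf9b and Xlr3b were lower. Mageb16, a gene of the MAGE family, had 38.3 and 31.1 CPM in WT, 14.2 and 16.3 in KO and at most 0.217 in the 8 knock-in libraries. Mageb16 passed the filter through WT and KO alone, so its levels too are given as a description. Of 13 tested DNA methylation genes 5 differed among genotypes, a share near the 38% of all genes that says nothing particular about the list. Dnmt3b was higher in Q20, at 210 and 241 CPM against 4.64 and 7.28 in WT, while Mbd1 and Mbd2 were lower. Dnmt3c had 4.00 and 3.89 CPM in Q20 against 0.473 and 0.307 in WT. Its WT libraries lay below the 1 CPM of the filter, so its levels are given as a description.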

How the data were processed

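The authors deposited 1 table of values named CPM, read counts scaled to library size, for each cell type, and tests were made within a table only. These signal values were scaled by the authors before deposition, since the columns sum to between 900342 and 1080730. Whole reads were recovered from the steps of the values for 100% of entries (tolerance 0.01 of a read). Per the labels' protocols, total RNA was sequenced as paired ends. The submitters' processing notes name CASAVA 1.8, STAR and GRCm38.p6 without their roles. Which tool counted reads, and whether by strand, is not given in the sources used here.

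Genes were matched to GENCODE M21 (99.63% of mESC and 99.82% of NPC genes). log2(CPM + 1) of the deposited values was fitted with limma 3.58.1 (trend) to 6 genotype means over all 12 libraries of a table, after a filter of at least 1 CPM in at least 2 libraries. Tests were two-sided, and p-values were adjusted by Benjamini-Hochberg over all genes tested. edgeR 4.0.16 (quasi-likelihood) on the recovered reads was the alternative, and median-of-ratios scaling came from DESeq2 1.42.0 (R 4.3.3, Python 3.11.15, pandas 2.3.3). The scripts were tested on simulated data. In mESC all 15 correlations of same-numbered libraries' deviations were over 0.1 (0.250 to 0.547), so the replicate number was taken to pair them, while in NPC 3 of 15 were. Differences between replicate numbers, edgeR with the block and fits leaving out libraries under the block were added after the data were seen.

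The members and lists were chosen with earlier results of these data known. All members are given in every library. The plan was to name at most 3 called genes of the largest CPM from each list, plus genes of the Rhox, Nxf and synaptonemal families. Further called genes were also named, among them those of the DNA methylation list and X-linked genes in NPC. The named genes thus do not follow abundance alone. Likeness is the Pearson correlation over 12 libraries, the highest 3 being named, among genes reaching 5 CPM. Neighbours are genes whose lowest genomic coordinate lies within 250 kb of that of the member, whatever the strand.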

Additional observations from a re-analysis of the deposited data

Results flagged for a closer look

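Nxf3 differed between Q111 and Q20 in opposite directions in the cell types. On the log2(CPM + 1) scale, Q111 minus Q20 was 1.07 in mESC and -5.86 in NPC. Both Q111 libraries lay above both Q20 libraries in mESC, and both lay below them in NPC. The difference between the cell types was not tested, because their tables were scaled separately and Nxf3 was selected on its measured levels.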

How the results depend on the processing

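Over 38 settings 193 of 220 alternative values kept their call, and 27 moved. In mESC the count of members differing among genotypes was 3 with the replicate block and 3 with edgeR and the block, against 0 without it; leaving out each library in turn under the block gave 0 to 2. For Q20 against WT the counts were 2 with the replicate block, 2 with edgeR and the block and 0 to 2 leaving out each library. The block changed no other member's call. For replicate 2 against 1, the count of 4 became 2 without the WT, the KO, the Q20 or the Q92 libraries. In NPC 0 tested members passed the filter, and leaving the filter out let 3 in. This gave 1 for any difference, 1 for Q20 against WT, 2 for Q92 against Q20, 1 for Q111 against Q20 and 2 for the trend. The genes called were Ddx4 and Sycp3, both under 1 CPM. With the filter 38% of all NPC genes were called for any difference, and 9.97% higher and 4.57% lower for Q20 against WT. Shares without the filter are not given, so these counts say nothing particular about the members. Depth limits Tex101, with 32 reads at the lowest in mESC, and the NPC members, while the other mESC members had at least 129 reads in every library.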
